A study of Mus musculus with 46 samples.

Results

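Divergent promoter pairs are pairs of protein-coding genes that lie head to head on opposite strands and share a short promoter stretch. They were taken from the GENCODE vM1 annotation of the mouse genome build mm9, as genes that do not overlap and whose transcription start sites lie 1 kb or less apart. The rule gave 808 pairs, which hold 1599 of 22367 protein-coding genes (7.15%), and 17 genes belong to 2 pairs. A further 412 head-to-head neighbours were left out because the genes overlap. The comparison group was 18089 genes with a single promoter, which have no other protein-coding start within 5 kb, and a further 566 pairs of tail-to-tail neighbours served for comparisons of 2 adjacent genes.

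The values are peaks of ChIP-Seq, which recovers the DNA bound to a given histone, for the histone variant H3.3, for trimethylation of histone H3 at lysine 4 (H3K4me3) and for trimethylation at lysine 36 (H3K36me3). Reprogramming started from mouse embryonic fibroblasts (MEFs) carrying an Oct4-GFP reporter, which were infected with retroviral Oct4, Sox2, Klf4 and c-Myc (OSKM), and cells were taken on day 0 (D0) and day 3 (D3). Thy-1 sorting on days 6 and 9 gave the successful fractions D6T- and D9T- and the unsuccessful D6T+ and D9T+, and SSEA-1 sorting on days 12 and 16 gave the successful D12S+ and D16S+ and the unsuccessful D12S- and D16S-. Fully reprogrammed iPSCs and the ESD3 mouse embryonic stem cells closed the series, and a hematopoietic transdifferentiation labelled SLBR induction gave MEF (day 0), D4 (day 4), cKit+ and cKit- cells, the last pair being sorted on c-Kit. H3.3 was measured in all 16 of these groups, and H3K4me3 and H3K36me3 in the 7 groups D0, D3, D6T-, D9T-, D12S+, D16S+ and iPSCs. Each group had 1 library of a cell population, so no replicate error exists. The infected cells were a mixed population and the sort was by a single surface marker at each time.

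Divergent promoters are common in mammalian genomes and are mostly CpG islands that lack a TATA box, from which RNA polymerase II starts transcription on both strands. Many serve housekeeping genes, such as those for DNA repair, mitochondrial proteins and histones. H3K4me3 marks the nucleosomes flanking active or poised start sites, H3K36me3 is laid down in gene bodies during transcription elongation, and H3.3 is the replacement histone that is deposited independently of replication at active promoters, gene bodies and enhancers.

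The stretch between the starts was short, with a median of 140 bases, quartiles of 72.0 and 270 and a range from 0 to 986. It was 100 bases or shorter in 298 pairs, above 100 and up to 300 bases in 340 pairs and longer in 170 pairs. The median GC content of the stretch was 62.0% in the 697 pairs with at least 50 bases. The 3 pairs whose lowest H3K4me3 density between the starts over the 7 libraries was highest are shown first, 5′ to 3′ on the plus strand of mm9 and from the base after one start to the base before the other. Capitals mark matches, on either strand, to the promoter motifs described afterwards.
Med22/Rpl7a, chr2:26766198-26766283: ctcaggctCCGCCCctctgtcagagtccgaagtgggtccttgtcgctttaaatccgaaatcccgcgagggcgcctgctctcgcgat
Alkbh1/1810035L17Rik, chr12:88784790-88784845: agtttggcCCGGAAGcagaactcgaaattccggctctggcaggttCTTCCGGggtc
Zcchc17/Snrnp40, chr4:130037191-130037378: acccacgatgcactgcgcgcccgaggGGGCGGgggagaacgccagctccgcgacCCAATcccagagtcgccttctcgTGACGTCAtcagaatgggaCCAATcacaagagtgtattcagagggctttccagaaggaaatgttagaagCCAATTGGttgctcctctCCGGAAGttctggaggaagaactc

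The pairs whose H3.3 rose or fell most between D0 and iPSCs, a pair with H3K36me3 on a single gene and a pair that gained H3K4me3 had the following stretches, shown because the values of these genes are given in detail.
Ankrd32/2210408I21Rik, chr13:77274735-77274796: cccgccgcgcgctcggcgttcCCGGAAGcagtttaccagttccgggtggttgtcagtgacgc
Ccs/Ccdc87, chr19:4839323-4839365: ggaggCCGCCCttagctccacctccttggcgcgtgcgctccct
Hsdl1/Lrrc50, chr8:122099101-122099134: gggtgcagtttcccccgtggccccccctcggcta
Anxa5/1810062G17Rik, chr3:36374766-36375056: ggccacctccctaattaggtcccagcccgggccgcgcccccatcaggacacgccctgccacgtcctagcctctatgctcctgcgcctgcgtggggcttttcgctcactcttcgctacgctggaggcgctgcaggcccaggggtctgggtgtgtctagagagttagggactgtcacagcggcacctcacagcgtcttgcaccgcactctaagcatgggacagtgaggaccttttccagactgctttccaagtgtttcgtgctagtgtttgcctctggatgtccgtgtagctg
Phf7/Bap1, chr14:32064405-32064674: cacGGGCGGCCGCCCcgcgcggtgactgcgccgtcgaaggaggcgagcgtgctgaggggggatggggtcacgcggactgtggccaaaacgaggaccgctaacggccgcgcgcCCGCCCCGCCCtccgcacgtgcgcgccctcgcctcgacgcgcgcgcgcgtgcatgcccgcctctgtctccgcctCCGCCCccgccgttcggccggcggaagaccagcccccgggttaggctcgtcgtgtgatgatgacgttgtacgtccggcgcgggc
Rad51c/Tex14, chr11:87218457-87218566: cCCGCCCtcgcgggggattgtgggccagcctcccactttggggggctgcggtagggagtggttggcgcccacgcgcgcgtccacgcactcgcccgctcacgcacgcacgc

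Of the pairs known from textbooks, Mrps12/Sars2, which encodes a protein of the small mitochondrial ribosomal subunit and the mitochondrial seryl-tRNA synthetase, and Col4a4/Col4a3, which encodes a pair of basement membrane collagen chains, had these stretches, the former CpG-rich at both starts and the latter not.
Mrps12/Sars2, chr7:29526840-29527009: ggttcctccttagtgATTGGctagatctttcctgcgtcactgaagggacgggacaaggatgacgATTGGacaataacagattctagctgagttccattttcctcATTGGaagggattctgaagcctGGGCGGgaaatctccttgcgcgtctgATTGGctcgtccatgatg
Col4a4/Col4a3, chr1:82583425-82583495: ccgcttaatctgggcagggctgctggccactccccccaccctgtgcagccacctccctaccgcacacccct

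Pair promoters were CpG-rich far more often than single promoters. Of the 1599 pair genes, 82.5% had a CpG-rich start, against 40.0% of single promoters and 44.2% of all genes, and 7238 single promoters were CpG-rich. A start was called CpG-rich from its GC content and its ratio of observed to expected CpG. Because of this gap, the main tested differences from single promoters are also given against the CpG-rich ones.

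Promoter motifs were searched on both strands from 250 bases before to 50 bases after each start, so the windows of a pair overlap. The ETS motif CCGGAAG was present at 27.8% of pair genes, 9.02% of single promoters, 16.5% of CpG-rich single promoters and 10.8% of all genes. The CCAAT box CCAAT stood at 42.8% of pair genes, against 37.8%, 36.7% and 37.9% in the same order, and the YY1 motif AAGATGG at 9.88%, against 6.39%, 6.22% and 6.73%. The TATA box TATAAA was found at 4.44% of pair genes, 14.6% of single promoters, 5.87% of CpG-rich single promoters and 13.4% of all genes. The GC box GGGCGG stood at 68.4% of pair genes, 41.0% of single promoters, 74.2% of CpG-rich single promoters and 43.4% of all genes. The cAMP response element TGACGTCA was present at 4.19% of pair genes, 2.26% of single promoters, 3.81% of CpG-rich ones and 2.32% of all genes. The palindromic NRF1 motif, searched in a single form of 10 letters, was found at 3.31%, 1.01%, 2.13% and 1.18%, and another palindrome of 10 letters with CGCG at its centre at 1.50%, 0.536%, 1.19% and 0.604%. Thus ETS, CCAAT and YY1 motifs stood at a higher share of pair genes than of either group of single promoters, whereas the GC box share was below that of CpG-rich single promoters.

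Gene lists drawn up from textbook knowledge were spread unevenly over the pairs, against 7.15% of all genes. Of 67 replication-dependent histone genes, 27 (40.3%) were in pairs, 13 pairs having both genes in the list. DNA repair and replication genes were in pairs in 25 of 87 cases (28.7%), respiratory chain genes in 21 of 82 (25.6%), mitochondrial ribosome genes in 16 of 77 (20.8%), tRNA synthetases in 7 of 36 (19.4%), proteasome genes in 5 of 42 (11.9%) and collagens in 2 of 43 (4.65%). None of 45 fibroblast genes and none of 47 pluripotency genes was in a pair. With lists of this size a share of up to 7.87% and 7.56% (Wilson upper limits) would still be possible, which is above the share of all genes. Of 18 textbook pairs, 8 met the rule: Atm/Npat, Brca1/Nbr1, Mcm4/Prkdc, Gart/Son, Wrap53/Trp53, Mrps12/Sars2, Pdcd10/Serpini1 and Col4a4/Col4a3.

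The libraries held 13.2 to 91.8 M tags and 12322 to 108179 peaks. The share of tags in peaks ranged from 1.07% (H3K36me3, D12S+) to 42.4% (H3K36me3, D9T-), and among the H3.3 libraries from 1.65% and 2.31% in cKit+ and cKit- to 37.2% in D4. The H3K4me3 library of D16S+ had 3.71% of its tags in peaks, against 9.27% to 34.8% in the other 6. It also had the fewest tags of the H3K4me3 libraries, 15.8 M. The H3K36me3 library of D6T- had an estimated fragment of 444 bp, against 110 to 168 bp elsewhere. Shares of marked genes move with how much was called in a library. H3.3 lay in 5 of 5 fibroblast markers in D0 and 1 of 5 in iPSCs, and in 2 of 5 pluripotency markers in D0, 5 of 5 in iPSCs and 4 of 5 in ESD3. Of 5 hematopoietic markers, cKit+ had H3.3 in 2, cKit- in 3, MEF in 2 and D4 in all 5.

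H3K4me3 covered nearly every divergent promoter as a single domain across both starts. In D0, 96.2% of pair genes had an H3K4me3 peak on their own side, which is the window from the start to 1 kb into the gene and leaves out the promoter of the partner. The D3, D6T-, D9T- and D12S+ libraries followed with 95.8%, 96.2%, 96.0% and 93.2%, and D16S+ had 65.3% and iPSCs 95.0%. Between the starts, 96.5% of pairs had a peak in D0, and the share over the 7 libraries ran from 57.2% in D16S+ to 96.9% in D6T-, with a median of 96.2%. A single peak spanned both starts in 95.2% of pairs in D0, 45.5% in D16S+ and 92.1% in iPSCs. D16S+ thus stood apart, in the library with the fewest tags in H3K4me3 peaks, and 748 pairs (92.6%) had H3K4me3 between the starts in each of the other 6 libraries, of which 455 had it in D16S+ as well.

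Pair genes had H3K4me3 on their own side more often than single promoters, by 36.7 percentage points on average and by 28.4 to 38.7 in the 7 libraries (exact sign-flip test over libraries, two-sided, p = 0.0156, adjusted p = 0.0195 over 10 tests, higher in 7 of 7 libraries). This p is the smallest that 7 libraries can give, and since every library holds the same pairs it speaks of these libraries and not of other pairs. Between the starts, the difference was 40.4 points (at most 43.5, the same p-values), where a window of 140 bases before the start stood for the stretch at single promoters. Against CpG-rich single promoters the own-side difference turned to -3.55 points (p = 0.0156 by the exact test, pairs lower in 7 of 7 libraries), and between the starts it was 1.01 points (p = 0.984 by the exact test). The latter rested on D16S+, with 16.4 points, and without this library it was -1.55 points (exact p = 0.0625). With pair genes and single promoters both CpG-rich, the own-side difference was 0.531 points (exact p = 0.0312, adjusted p = 0.0521, 6 of 7 libraries) and that between the starts 4.24 points (exact p = 0.0156, adjusted p = 0.0312, 7 of 7 libraries). Nearly all CpG-rich single promoters had the mark, with 99.3% in D0 and 70.4% in D16S+. Where a peak had to have its midpoint in the window, the own-side difference from all single promoters was -3.59 points (exact p = 0.0938).

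The H3K4me3 domain was wider at pairs and reached to both sides. The median width of the peak over a start was 3.38 kb for pair genes and 2.85 kb for CpG-rich single promoters in D0, 2.84 and 2.25 kb in iPSCs and 1.89 and 1.45 kb in D16S+, and pairs had the wider peaks in 7 of 7 libraries. In D16S+, peaks covered 58.7% of pair genes 400 bp downstream of the start and 57.7% at 500 bp upstream, with 51.1% at the start itself. CpG-rich single promoters had 59.4% at 500 bp downstream but 27.7% at 300 bp upstream. Upstream of a pair gene lies the partner, so the profile of pairs is near symmetric by construction.

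**Figure D1:**
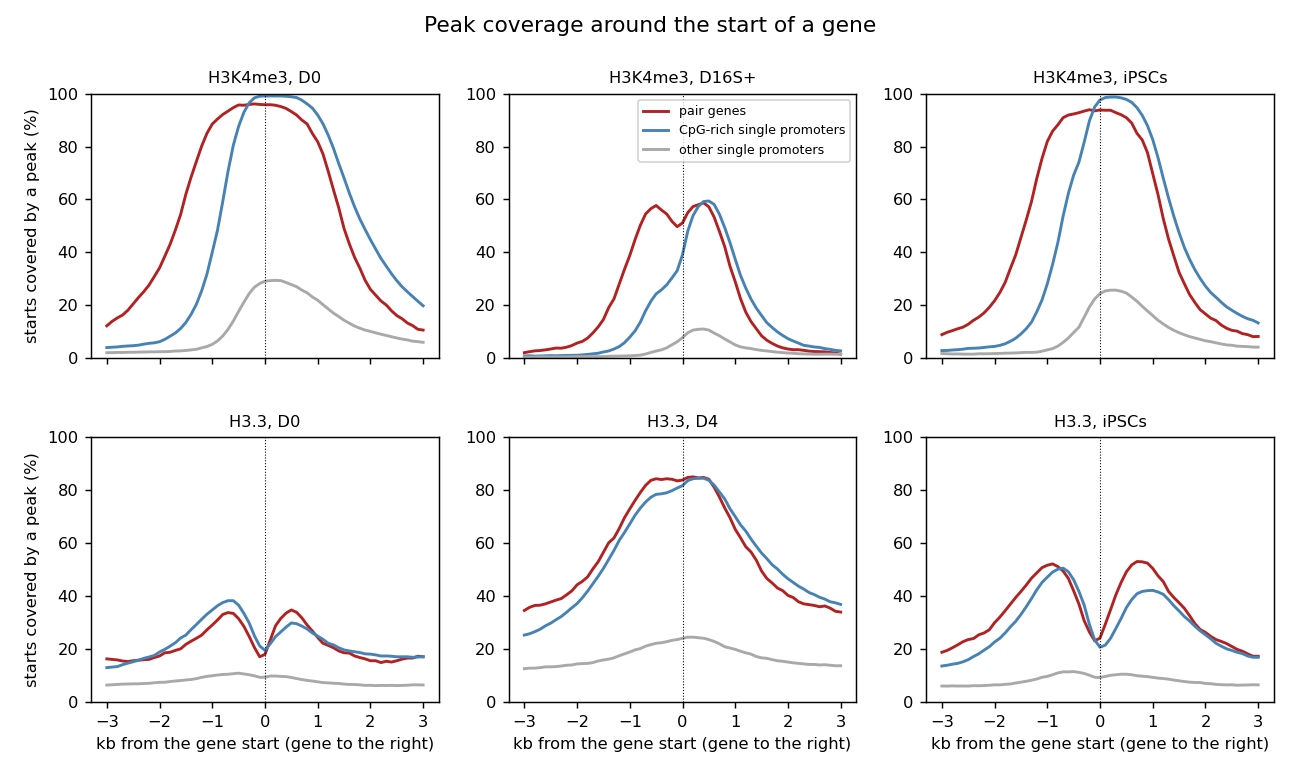
Share of gene starts covered by a peak (%) against the distance from the start (kb, gene to the right) for pair genes, CpG-rich single promoters and other single promoters, in 6 libraries. H3K4me3 in D0 and iPSCs forms a single plateau over a pair, and H3.3 in iPSCs forms 2 shoulders of 52.2% and 53.1% around 24.2% at the start.

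Only 23 pairs (2.85%) had no H3K4me3 between the starts in any of the 7 libraries. They included, named here after their values were seen, pairs with genes known from testis or other specialised tissues, such as Plcz1/Capza3 (a sperm phospholipase and a sperm actin-capping protein), Dgcr2/Tssk1 (the latter a testis-specific kinase) and Smyd1/Cd8b1 (a muscle methyltransferase and a T cell co-receptor chain). The list also held pairs such as Ccnt1/4930415O20Rik, Dusp3/1700006E09Rik and Best1/Rab3il1. Its genes were not sorted by tissue, so no share of such genes is given.

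The 3 pairs whose lowest H3K4me3 over the 7 libraries was highest are given as density, in normalized tags of called peaks per kb between the starts. In Med22/Rpl7a, a Mediator subunit and a protein of the large ribosomal subunit, the density from D0 through D3, D6T-, D9T-, D12S+ and D16S+ to iPSCs was 80.8, 78.6, 102, 73.4, 42.3, 39.0 and 45.4. Alkbh1/1810035L17Rik, the former a dioxygenase, had 89.6, 89.0, 135, 109, 40.3, 38.7 and 42.1 in the same order. Zcchc17/Snrnp40, whose second gene encodes a protein of the U5 spliceosomal particle, had 82.5, 77.5, 114, 78.9, 41.8, 37.0 and 37.4. All 3 pairs kept H3K4me3 in every library, and each was higher in the 4 libraries up to D9T- than in the 3 later ones. The former libraries had 22.9% to 34.8% of their tags in H3K4me3 peaks and the latter 3.71% to 12.7%. Chosen for the highest minimum, they are a description.

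Single pairs with the largest rise or fall of H3K4me3 density between the starts from D0 to iPSCs were chosen by these values and are a description. In Rad51c/Tex14, a homologous recombination gene and a gene for germ cell intercellular bridges, the density was 0, 6.26, 44.8, 0, 18.7, 25.0 and 28.8 from D0 to iPSCs in that order of libraries. In Hspb2/Cryab, a pair of small heat shock proteins, it was 0, 38.7, 35.4, 37.3, 18.5, 0 and 14.2. Hist1h2ba/Hist1h2aa, the testis-specific H2B and H2A genes, had 11.9 between the starts in iPSCs and no peak there in the other 6 libraries, although in D6T- a peak of density 14.6 covered 99.5% of Hist1h2ba itself. The course was thus uneven in the first 2 pairs, with D9T- or D16S+ back at 0.

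Of the falls, 2010002M12Rik/Ifit1, the latter an interferon-induced gene, had 47.7 in D0, 0 in D3, 13.2, 21.5 and 16.1 in D6T-, D9T- and D12S+, and 0 in D16S+ and iPSCs. The histone pair Hist1h2an/Hist1h2bp had 53.9 in D0, 40.2, 43.9, 35.0 and 9.05 in the next 4 libraries and 0 in D16S+ and iPSCs, and Hist1h2bq/Hist1h2ao had 46.8, 43.8, 55.8 and 38.9 up to D9T- and 0 in the last 3. Histone genes have near-identical copies and reads at more than 1 locus were removed by the authors, so these values are uncertain.

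H3.3 was found on the own side of pair genes at a share that varied widely between libraries. Along the successful route the share began at 44.3% in D0 (95% Wilson interval 41.9 to 46.8) and 31.3% in D3. D6T- and D9T- had 40.8% and 41.2%, D12S+ and D16S+ 31.0% and 24.5%, and iPSCs 64.5%, while ESD3 had 18.8%. The unsuccessful fractions had 25.1% on day 6 (D6T+), 32.8% on day 9, 55.7% on day 12 and 44.2% on day 16 (D16S-), and in transdifferentiation the share was 34.6% in MEF, 89.2% in D4, 5.44% in cKit+ and 8.01% in cKit-. The iPSC share stood above every other library except D4, while ESD3, another pluripotent population, was below all but the cKit libraries. Single promoters had 30.7% in iPSCs, 11.0% in ESD3 and 52.7% in D4, so they too were high in iPSCs and D4 and low in ESD3. The place of iPSCs depended on the fold over input that a peak had to reach. With a stricter fold, H3.3 on both sides of a pair was found in 3.09% of pairs in iPSCs and 14.4% in D0, against 49.1% and 25.4% with all peaks.

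**Figure D2:**
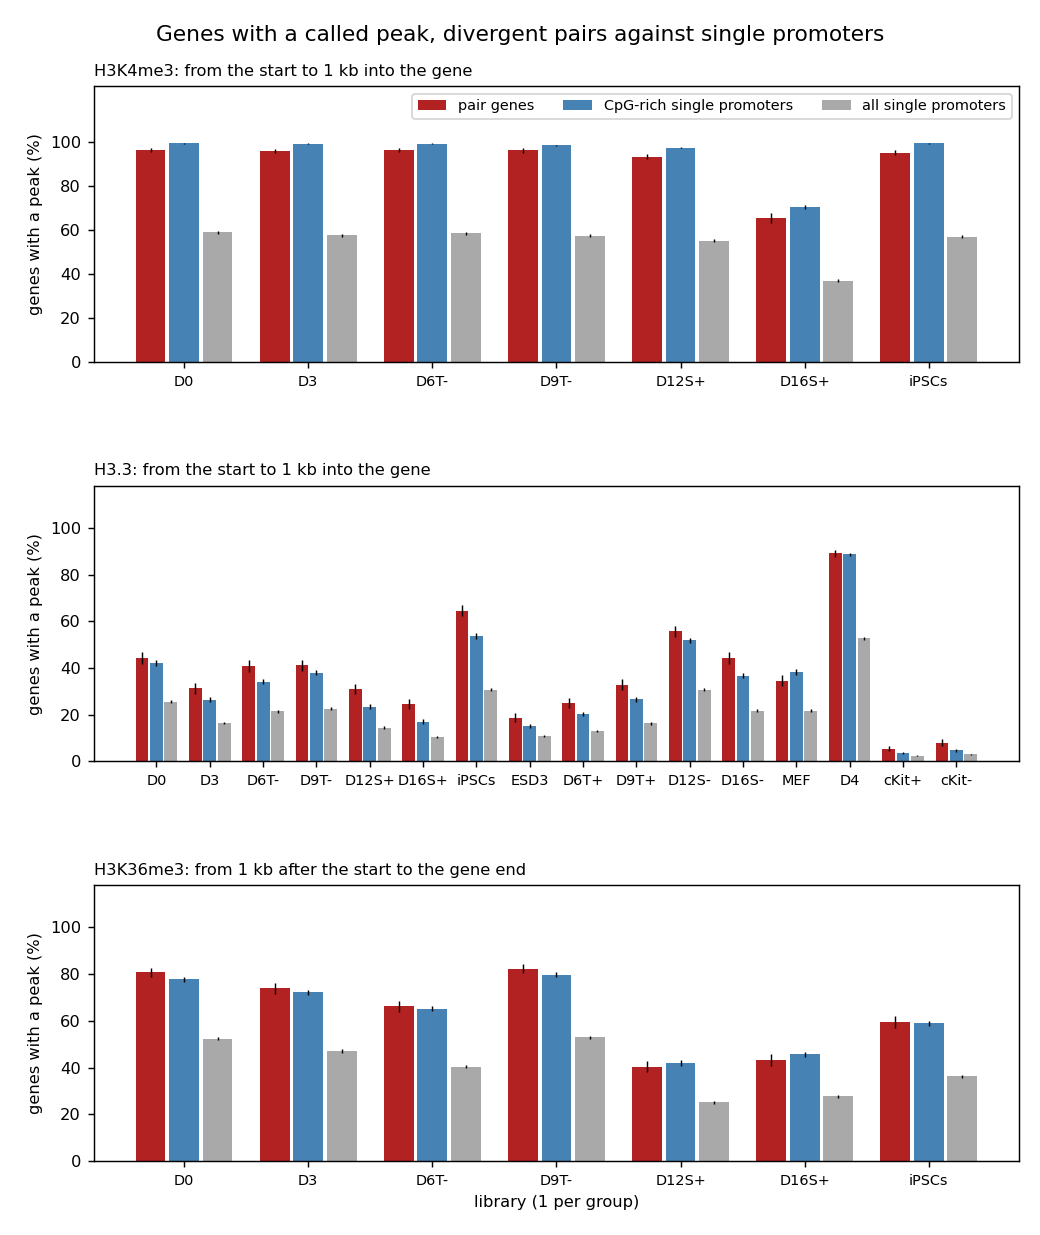
Share of genes with a called peak (%) in each library for pair genes, CpG-rich single promoters and all single promoters, with H3K4me3 and H3.3 on the own side and H3K36me3 in the body. Bars are shares with 95% Wilson intervals, and for H3.3 pair genes run from 5.44% in cKit+ to 89.2% in D4.

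Pair genes had H3.3 on their own side more often than single promoters in every library, by 17.3 points on average and by 2.99 to 36.6 (exact sign-flip test, p = 3.05e-05, adjusted p = 1.02e-04, 16 of 16 libraries). Against CpG-rich single promoters the excess was 4.39 points (-3.65 to 10.9, exact p = 3.05e-04), and it was positive in 15 of 16 libraries. The exception was MEF, with 34.6% of pair genes and 38.3% of CpG-rich single promoters. With both groups limited to CpG-rich starts the excess was 5.50 points. The own-side excess of H3.3 was thus smaller but kept its sign in both comparisons.

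The position of H3.3 differed from that of H3K4me3, since H3.3 coverage had its highest points beside the starts and was lower at the start in every library. In iPSCs, peaks covered 24.2% of pair genes at the start, 52.2% at 900 bp upstream and 53.1% at 700 bp downstream. In D0 the values were 18.0% at the start, 33.8% at 700 bp upstream and 34.8% at 500 bp downstream, and in ESD3 they were 5.13%, 12.5% and 12.1%. D4 was nearly flat, with 83.9% at the start and 84.4% and 84.9% on the sides. In iPSCs, CpG-rich single promoters had 20.7% at the start, 50.6% at 700 bp upstream and 42.2% at 1000 bp downstream. Downstream of the start, the highest point of pair genes was above that of CpG-rich single promoters in iPSCs and in D0 (34.8% against 29.9%). In MEF it was below, at 26.6% against 28.2%. Compared with the upstream side of CpG-rich single promoters, the downstream side of pair genes had the higher point in iPSCs and D4. It had the lower one in D0 and most other libraries. These profiles were not tested against each other.

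In most libraries, D0 included, more pairs carried H3.3 on 1 side than on both, the exceptions being iPSCs, D12S- and D4. In D0, 205 pairs (25.4%) had H3.3 on both sides, 304 (37.6%) on 1 side and 299 on none, and 178 (22.0%) had it between the starts. In iPSCs, 397 (49.1%) had it on both sides and 249 on 1 side, and 232 (28.7%) had it between the starts. The phi coefficient of the 2 sides across the 808 pairs was 0.24 in D0 and 0.33 in iPSCs, and ranged from 0.07 in cKit+ to 0.58 in D4, as a description, since wide peaks can reach over both sides. For H3K4me3 it was 0.47 to 0.77.

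In iPSCs, 196 pairs (24.3%) had H3.3 on both sides but not between the starts, against 9.65% in D0, 2.85% in ESD3 and 0.495% to 7.92% in the other 13 libraries. CpG-rich single promoters, taken with a mirrored window upstream, had 18.7% in iPSCs, 9.10% in D0 and 3.11% in ESD3. This share depended on peak calling, and after cutting every list to the length of the shortest by score it was 7.05% in iPSCs, 1.24% in D0 and 0.743% in ESD3. With a stricter fold over input it was 1.24% in iPSCs and 4.08% in D0.

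The share of pairs with H3.3 between the starts was higher than in the window before single promoters by 8.43 points (0.0847 to 37.6, exact p = 3.05e-05, adjusted p = 1.02e-04, 16 of 16 libraries). Against CpG-rich single promoters it differed by 0.501 points (exact p = 0.469), with pairs higher in 9 of 16 libraries. The share grew with the length of the stretch. In D0 it was 15.4% for up to 100 bases, 19.1% for up to 300 and 39.4% for longer stretches, in D3 3.36%, 10.0% and 21.2%, and in iPSCs 25.8%, 25.3% and 40.6%. A longer stretch gives more room for a peak, which was not adjusted for. In D4 the 3 classes had 86.6%, 85.6% and 84.7%, and 194 pairs (24.0%) had H3.3 between the starts in D4 and in no other library. A further 87 pairs had none in any library.

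**Figure D3:**
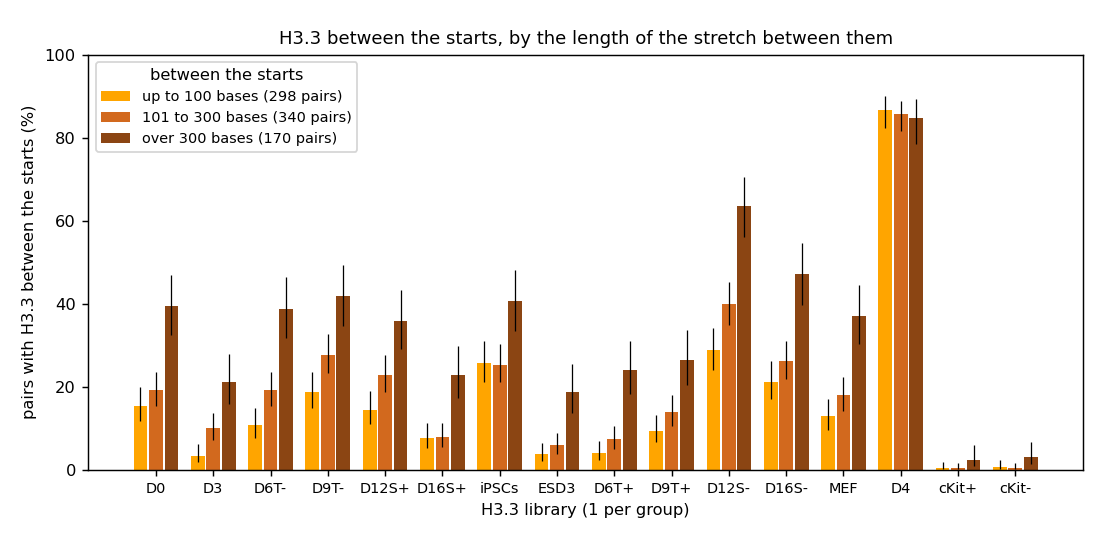
Share of pairs with an H3.3 peak between the starts (%) in each of the 16 libraries, by the number of bases between the starts, with 95% Wilson intervals. The longest class is highest in most libraries, as in D0 with 39.4% against 15.4% and 19.1%, while in D4 the classes lie at 84.7% to 86.6%.

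H3.3 on either side of a pair was steady in few pairs. It was present in all 12 reprogramming libraries in 75 pairs, in none of them in 61 pairs, and in all 16 libraries in 10 pairs.

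The successful and unsuccessful fractions differed in opposite directions early and late. The own-side share of pair genes was 40.8% in D6T- against 25.1% in D6T+, 41.2% in D9T- against 32.8% in D9T+, 31.0% in D12S+ against 55.7% in D12S-, and 24.5% in D16S+ against 44.2% in D16S-. The mean difference over the 4 days was -5.07 points (exact sign-flip test, p = 0.625), and 4 days cannot give a p under the threshold of 0.05. In the gene body it was -7.69 points (exact p = 0.500). Single promoters went the same way, with 21.5% against 12.9%, 22.6% against 16.4%, 14.5% against 30.8% and 10.3% against 21.8%. So did the share of tags in peaks, at 19.3% against 10.9%, 14.8% against 12.1%, 6.93% against 22.0% and 4.88% against 12.2%. With every list cut to the length of the shortest by score, the mean difference was -0.704 points on the own side (-10.8 to 8.26 over the days) and -3.58 in the body (-12.5 to 9.33). With a stricter fold over input, the mean was -7.52 points on the own side (-11.6 to 1.88) and -13.9 in the body (-22.2 to 5.06). Both were then negative on 3 of 4 days. With the change of the single promoters subtracted, the own-side mean was -1.82 points (-8.39 to 7.16).

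In the gene body, from 1 kb after the start to the gene end, 80.0% of pair genes had H3.3 in D0, 83.3% in iPSCs, 65.6% in ESD3 and 91.9% in D4, against 60.1%, 58.4%, 49.4% and 72.3% of single promoters. The difference was 18.3 points on average (9.42 to 25.0, exact p = 3.05e-05, adjusted p = 1.02e-04, 16 of 16 libraries). It was -2.28 points against CpG-rich single promoters (exact p = 0.00653, adjusted p = 0.0218) and pairs were higher in 2 of 16 libraries, whereas it was -0.312 points with both groups CpG-rich (exact p = 0.718). The median length was 18.1 kb for pair genes, 16.2 kb for single promoters and 29.7 kb for CpG-rich ones, and among genes of 5 to 50 kb the body excess over single promoters was 19.9 points.

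H3K36me3 lay in the bodies of pair genes and was nearly absent from the promoter between them. Its share in bodies was 80.7% in D0 and 73.9% in D3. D6T- and D9T- had 66.4% and 82.4%, D12S+ and D16S+ had 40.3% and 43.2%, and iPSCs had 59.5%. Between the starts, it was 0.124% in D0 and D9T- and 0 of 808 pairs in the other 5 libraries, and on the own side it was at most 1.50%. Pair genes had body H3K36me3 more often than single promoters by 23.5 points (15.2 to 29.5, exact p = 0.0156, adjusted p = 0.0195, 7 of 7 libraries). Against CpG-rich single promoters the difference was 0.723 points (exact p = 0.375), and with both groups CpG-rich it was 4.75 points (exact p = 0.0156, adjusted p = 0.0312, 7 of 7 libraries). At 10000 bp on either side of a pair start in D0, 32.8% and 32.7% of starts were covered, whereas CpG-rich single promoters had 9.27% upstream and 29.0% downstream.

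The 2 genes of a pair often differed in H3K36me3. Of 723 pairs in which both genes had a body of at least 1 kb, 490 had the mark in both genes in D0, 190 in 1 gene and 43 in neither. In iPSCs these counts were 282, 301 and 140. In 352 pairs (48.7%) at least 1 gene had the mark in each of the 7 libraries, but in 57 pairs (7.88%) both did, and in 25 (3.46%) neither gene had it in any. In D0 the state agreed in 73.7% of pairs, where independent genes with these shares would give 69.1%, and the phi coefficient was 0.10 to 0.17 over the 7 libraries, as a description. For H3.3 in the bodies, agreement ran from 55.6% to 87.7% and phi from 0.10 to 0.25.

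Tail-to-tail neighbours, whose gene ends lie 1 kb or less apart, agreed more often than divergent pairs. The difference for H3K36me3 was -4.22 points (-6.87 to -0.149, exact p = 0.0156, adjusted p = 0.0195, pairs lower in 7 of 7 libraries), and for H3.3 it was -7.56 points (-12.7 to 0.0186, exact p = 6.10e-05, adjusted p = 1.53e-04, 15 of 16 libraries). Both depended on how a marked body was defined. Leaving out the last 1 kb of the bodies, where a single peak can reach both tail-to-tail genes, turned the H3K36me3 difference to 1.41 points (exact p = 0.438) but left the H3.3 difference at -5.27 points (exact p = 5.80e-04, 14 of 16 libraries). Asking for 50% of the body to be covered turned the H3.3 difference to 2.49 points (exact p = 0.00339).

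In pairs with H3K36me3 on a single gene, H3.3 lay in the body of the marked gene more often than in that of its partner. In D0, with 190 such pairs, the shares were 85.8% and 60.5%, and D3 had 83.2% and 57.8%. D6T- had 90.8% and 70.8% and D9T- 78.2% and 50.6%, D12S+ had 80.9% and 57.0% and D16S+ 67.0% and 40.8%, and the 301 pairs of iPSCs had 88.7% and 76.4%. At the promoter the order was the other way in each of the 7 libraries. The own-side share was 40.0% on the marked and 44.2% on the unmarked gene in D0, 25.0% and 35.7% in D3, and 64.8% and 70.4% in iPSCs. H3K4me3 on the own side was 95.8% and 94.2% in D0. The same promoter thus had H3K4me3 on both sides while H3.3 in the body went with H3K36me3. Marked genes were longer, with a median of 17.1 kb against 12.5 kb in D0. Among the 67 pairs of D0 whose lengths were within 2-fold, the body shares were 86.6% and 64.2% and the own-side shares 38.8% and 46.3%. These differences were not tested.

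**Figure D4:**
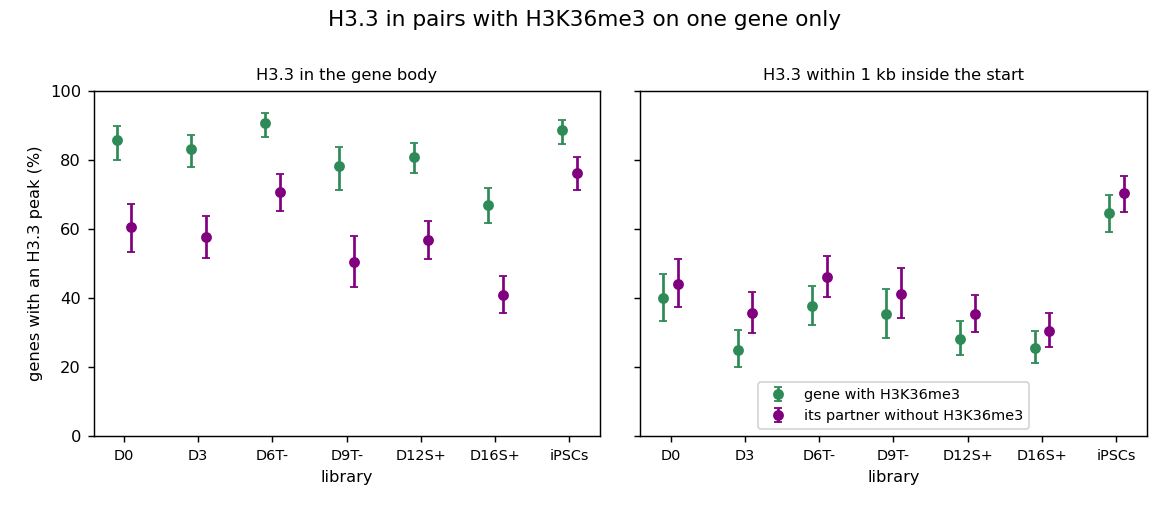
Share of genes with an H3.3 peak (%) in pairs that had H3K36me3 in the body of a single gene, for the gene with H3K36me3 and for its partner, in the 7 libraries. Points are shares with 95% Wilson intervals, and in the body the marked gene is higher in each library (85.8% against 60.5% in D0) while within 1 kb inside the start it is lower (40.0% against 44.2% in D0).

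The 3 pairs with the most one-sided H3K36me3 are given as density in normalized tags per kb of the gene. Hsp90b1, a chaperone of the endoplasmic reticulum, had 30.0, 16.3, 10.6, 34.2, 3.59, 3.42 and 3.02 from D0 through the 5 sampled days to iPSCs, whereas its partner BC030307 had 0 in all 7. The deubiquitinase gene Bap1 had 17.6, 10.3, 11.5, 26.0, 1.24, 1.17 and 0.756 in the same order, and Phf7, known from germ cells, had 0. Nol9, a nucleolar kinase of RNA processing, had 18.6, 12.2, 8.68, 37.2, 1.71, 1.75 and 2.35, and the taste receptor gene Tas1r1 had 0. In these pairs the mark was on the same gene in every library. They were chosen for having it on a single gene in as many libraries as possible, so this is a description. All 3 had H3K4me3 between the starts in D0, at 59.3 for Hsp90b1/BC030307, 78.9 for Phf7/Bap1 and 32.0 for Tas1r1/Nol9.

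H3.3 was found in both genes of these 3 pairs. Hsp90b1 had an H3.3 density of 9.12 in D0 and 1.71 in iPSCs, and BC030307 had 1.12 and 0.644. Phf7, without H3K36me3, had 2.21 and 1.98, and Bap1 had 0.153 and 1.29. Tas1r1 had 1.18 and 4.65, and Nol9 had 4.10 and 4.42. H3.3 was therefore present in all 6 genes in both libraries.

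Between D0 and iPSCs, a comparison of 1 library with 1 library, the share of pair genes that gained an H3.3 peak was near that of all genes, and the shares that lost one or gained or lost an H3K4me3 peak were lower, without a test. An H3.3 peak was gained in the body of 172 of 1501 pair genes (11.5%), against 11.1% of all genes, and lost in 122 (8.13%), against 11.9%. By a change in density of 2-fold or more, 168 (11.2%) gained, against 9.04%, and 307 (20.5%) lost, against 17.4%. Own-side H3K4me3 peaks were gained in 10 of 1599 pair genes (0.625%), against 2.28% of all genes, and lost in 30 (1.88%), against 4.09%. By density, 11 (0.688%) gained, against 2.51%, and 1032 (64.5%) lost, against 42.5%. H3K36me3 in the body was gained in 39 pair genes (2.60%), against 3.43%, and lost in 357 (23.8%), against 20.1%. By density, 22 (1.47%) gained, against 1.35%, and 1012 (67.4%) lost, against 43.1%. Many other genes had no peak in either library and so could not lose one. In D0, 96.2% of pair genes already had own-side H3K4me3 and 80.0% had body H3.3, against 63.2% and 62.7% of all genes. A smaller share of pair genes could therefore gain a peak, and gains among genes without a peak in D0 were not compared. Own-side H3K4me3 peaks were gained in 0.470% and lost in 0.566% of CpG-rich single promoters, both below the pair genes. An H3.3 peak in the body was gained in 8.22% of CpG-rich single promoters, below the pair genes, and lost in 11.2%, above them. Among CpG-rich single promoters, 66.5% lost H3K4me3 density and 61.6% lost H3K36me3 density by this measure, close to the pair genes. The iPSC libraries had 12.7% of tags in H3K4me3 peaks and 2.88% in H3K36me3 peaks, against 30.4% and 31.3% in D0.

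The change of H3.3 in a gene was only loosely followed by that of its partner. Across 723 pairs, Pearson's r of the 2 log2 changes was 0.22 for H3.3 and 0.19 for H3K36me3, as a description, with both genes measured in the same 2 libraries. In tail-to-tail neighbours (499 pairs) r was 0.49 and 0.32. Both genes rose 2-fold in H3.3 in 15 divergent pairs, both fell in 48, and they went in opposite directions in 17.

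The pairs with the largest rise of H3.3 from D0 to iPSCs were chosen by these values, so they are a description. In Ccs/Ccdc87, the former the copper chaperone of superoxide dismutase, the H3.3 density of Ccs was 0 in D0 and D3, 1.09 and 0.421 in D6T- and D9T-, 0 and 0.573 in D12S+ and D16S+, 4.93 in iPSCs and 1.78 in ESD3. In Hsdl1/Lrrc50, Hsdl1 had 0 in D0, 0.498, 0.983, 1.27, 0.528 and 1.83 up to D16S+, 5.80 in iPSCs and 2.57 in ESD3, and Lrrc50, a gene of ciliary dynein assembly, had 0.344 in D0 and 3.15 in iPSCs. Both Ccs and Hsdl1 were highest in iPSCs, and ESD3 was above D0. In Ankrd32/2210408I21Rik, 2210408I21Rik had 5.22 in iPSCs, 0.0546 in ESD3 and at most 0.086 in the other 14 libraries. The value in iPSCs came from peaks over 1.79% of this gene of 478 kb, so it stands for a small stretch of high tag density and not for the whole gene. Ankrd32 had 0 in both D0 and iPSCs. Ccs had no H3K36me3 in iPSCs, against 6.68 in D0, 2 libraries between which 67.4% of pair genes lost H3K36me3 density 2-fold or more.

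The pairs with the largest fall included Anxa5/1810062G17Rik. The H3.3 density of Anxa5, a calcium-dependent phospholipid-binding annexin, was 14.3 in D0 and 11.0 in D3, 10.8 and 4.36 in the successful fractions of days 6 and 9, 1.22 in D12S+, 0 in D16S+ and iPSCs and 0.232 in ESD3. The unsuccessful fractions had 10.7, 8.67, 9.59 and 7.62 on days 6, 9, 12 and 16, above the successful fraction of the same day from day 9 on. Its H3K36me3 went from 15.9 in D0 to 0.253 in iPSCs, whereas the H3K4me3 between the starts was 51.3 and 23.7. Over all pair genes, the median log2 change of body H3K36me3 between these libraries was -1.83. The partner 1810062G17Rik had an H3.3 density of 10.8 in D0 and 3.26 in iPSCs and no H3K36me3 in any of the 7 libraries.

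In Il11/Tmem190, the former a cytokine, Il11 had 7.97 in D0 and 0.533 in iPSCs and Tmem190 7.28 and 0, with no H3K4me3 between the starts in any library. Anxa5 had high H3.3 in D4 too, at 18.4.

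**Figure D5:**
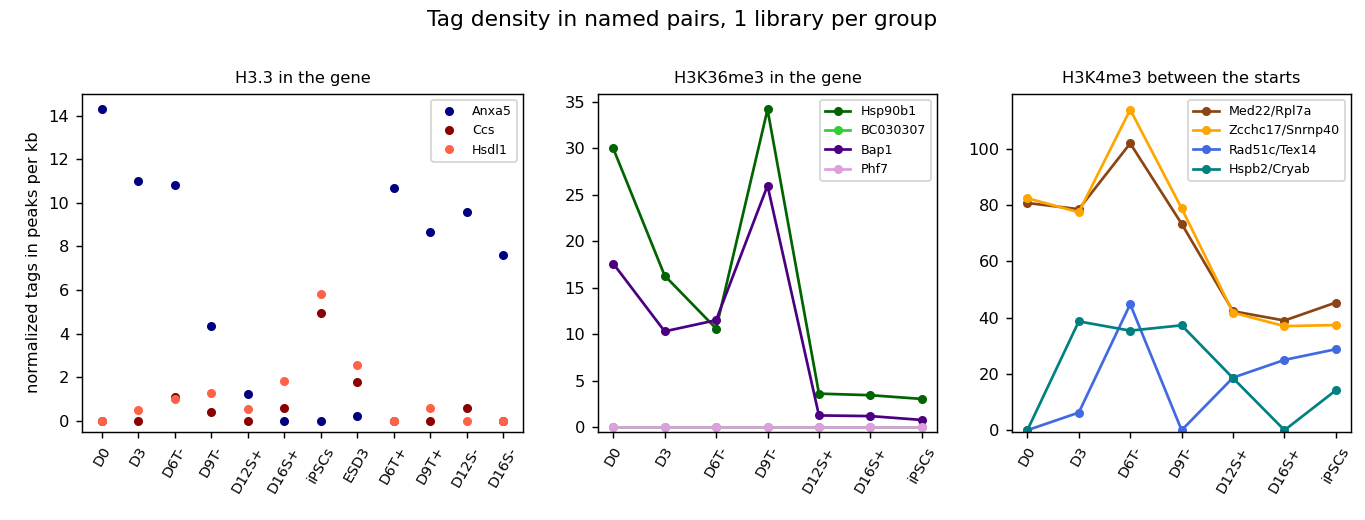
Density of normalized tags in called peaks per kb in each library, for H3.3 in 3 genes of rising or falling pairs, H3K36me3 in 4 genes of one-sided pairs and H3K4me3 between the starts of 4 pairs. Anxa5 goes from 14.3 in D0 to 0 in iPSCs and stays at 7.62 or more in the unsuccessful fractions, and BC030307 and Phf7 lie on each other at 0.

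Several textbook pairs had H3K4me3 between the starts and H3K36me3 in both genes. In Atm/Npat, the DNA damage kinase and an activator of histone genes, the H3K4me3 density was 91.1, 80.8, 115, 73.8, 38.3, 0 and 39.2 from D0 to iPSCs, with the 0 in D16S+. H3K36me3 was present in all 7 libraries in both genes, at 5.07 in D0 and 0.139 in iPSCs for Atm and at 16.5 and 0.906 for Npat. In Mcm4/Prkdc, a replicative helicase subunit and the DNA-dependent protein kinase, Mcm4 had 19.3 and 1.61 and Prkdc 3.06 and 0.0403. In Gart/Son, a purine synthesis enzyme and a splicing cofactor, Gart had 12.6 and 1.79 and Son 27.7 and 3.41. In these pairs both genes carried H3K36me3 in each library, unlike the one-sided pairs, which were chosen for having it on a single gene. Brca1 and Nbr1 also had it in all 7 libraries. Other textbook pairs differed. Pdcd10 had it in 6 libraries and its partner Serpini1 in 0, and Wrap53 and Trp53 had it in 5 libraries each. The lower iPSC densities stood beside 2.88% of tags in H3K36me3 peaks in iPSCs and 31.3% in D0, and a gene-level loss was not tested.

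H3.3 was unequal within the same pairs. Son had an H3.3 density of 9.40 in D0 and 2.26 in iPSCs, and Gart had 1.31 and 1.15. Mcm4 had 0.948 and 0.792, and Prkdc 0.190 and 0.520. Sars2 had 0.843 in D0 and 4.35 in iPSCs, and Mrps12 had 4.77 and 12.7, so that both genes of this pair were higher in iPSCs. Col4a4 and Col4a3 had 0.284 and 0.387 in D0 and 0.189 and 0.0431 in iPSCs, no H3K36me3 in any library, and an H3K4me3 density between the starts of 28.6 in D0 and 21.4 in iPSCs.

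By gene list, H3K4me3 was near complete in pairs, and nearly so outside them. All 25 DNA repair genes in pairs had it on their own side in D0 and in iPSCs, where own-side H3.3 was found in 13 and 20 of them and body H3K36me3 in 24 and 18. The 21 respiratory chain genes in pairs had H3K4me3 in 21 of 21 in both libraries, own-side H3.3 in 6 and 16, and body H3K36me3 in 18 and 13. Of the 16 mitochondrial ribosome genes in pairs, 16 had H3K4me3 in both libraries and 7 and 11 had own-side H3.3. These shares go with those of all 1599 pair genes, of which 44.3% had own-side H3.3 in D0 and 64.5% in iPSCs. Histone genes went the other way, with own-side H3.3 in 25 of 27 in D0 and 19 of 27 in iPSCs, and none of the 5 that were long enough had body H3K36me3. Histone genes outside pairs also fell, from 36 of 40 in D0 to 29 of 40 in iPSCs. Outside pairs, own-side H3K4me3 in D0 was found in 98.4% of the DNA repair genes, 90.2% of the respiratory chain genes and 96.7% of the mitochondrial ribosome genes, and body H3K36me3 in 95.1%, 92.5% and 96.4%. Respiratory chain genes outside pairs had own-side H3.3 in 20 of 61 in D0 and 33 of 61 in iPSCs.

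In transdifferentiation, the own-side H3.3 share of pair genes went from 34.6% in MEF to 89.2% in D4, and was 5.44% in cKit+ and 8.01% in cKit-. The body share was 57.4% in MEF, 91.9% in D4, 44.8% in cKit+ and 41.0% in cKit-. Single promoters had own-side shares of 21.8%, 52.7%, 2.45% and 3.12%, and CpG-rich single promoters 38.3%, 88.7%, 3.72% and 4.70%. The share of tags in peaks was 7.64% in MEF and 37.2% in D4, so peak calling and biology cannot be told apart in these 4 libraries. Body shares in cKit+ and cKit- were 50.0% and 45.6% for CpG-rich single promoters and 34.0% and 31.4% for all genes. Bodies thus had a peak more often than promoter sides in pair genes and other genes alike. Most bodies were longer than the own-side window of 1 kb, which was not adjusted for.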

How the data were processed

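ChIP-Seq peaks of 30 libraries were used (16 H3.3, 7 H3K4me3 and 7 H3K36me3), and 16 input samples were not analysed on their own. Per the study's methods and the file headers, the authors mapped reads to mm9 with STAR, removed reads with more than 1 locus and called peaks with HOMER for each library against an input, in histone style, with seeds of 500 bp, a Poisson p-value of at most 1.00e-04 over input and no pooling. Versions were not given in the sources used here. The deposited score is a signal, the tag count scaled to 10 M tags, not corrected for peak length or input. The deposited ratio, the fold over input, was at least 2 for H3.3 and 4 for the others. The lists hold only peaks past these limits, so a region without a peak is not a region without the mark.

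A region was counted as marked if a peak overlapped it by 1 bp or more. The own side ran from the start to 1 kb into the gene, the body from 1 kb to the gene end for genes of 2 kb or longer. Tags of a peak were spread evenly over it to give densities, and log2 changes used a pseudocount of 1. A start was CpG-rich with over 50% GC and an observed to expected CpG ratio over 0.6. Intervals of shares are 95% Wilson intervals and cover counting error only. Differences between groups were tested by a two-sided exact sign-flip test over libraries with Benjamini-Hochberg adjustment over 10 tests. With 1 library a group there was no test between conditions for single genes. Named pairs were the textbook pairs meeting the rule and, for each kind of value, the 3 most extreme pairs, of which 1 is not reported here. Members and lists were chosen with earlier results of these data known. Sequences came from the mm9 genome, on which no peak ran past a chromosome end. Scripts were tested on simulated data and run with Python 3.11.15, numpy 2.4.6, pandas 2.3.3 and matplotlib 3.10.9.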

Additional observations from a re-analysis of the deposited data

Results flagged for a closer look

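The H3.3 difference between the successful and the unsuccessful fraction changed direction between the early and the late days, which set it apart. For the own side of pair genes it was 15.8 points on day 6, 8.44 on day 9, -24.7 on day 12 and -19.8 on day 16, and for the bodies it was 12.1, 1.87, -20.5 and -24.3. With every list cut to the length of the shortest by score, the own-side range was -10.8 to 8.26 points, and with the change of the single promoters subtracted it was -8.39 to 7.16. With a stricter fold over input, the range was -11.6 to 1.88 on the own side and -22.2 to 5.06 in the bodies, negative on 3 of 4 days in both. The change of direction itself was not tested, since each day had 1 library of each kind and the sorted surface marker changed from Thy-1 to SSEA-1 at the same time.

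The first days of the 2 conversions also went in opposite directions. The own-side share changed by -13.1 points from D0 to D3 of reprogramming and by 54.6 points from MEF to D4 of transdifferentiation, and the body share by -2.80 and 34.5 points. This difference was not tested either, and the times and the share of tags in peaks differed between the 2 conversions.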

How the results depend on the processing

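Of 135 recomputed values, 103 kept their direction and their side of the threshold or, for counts of changed genes, came within 1.5 times of the reported count. Replacing all single promoters by CpG-rich ones gave -3.55 points for own-side H3K4me3, -2.28 for body H3.3, 1.01 for H3K4me3 and 0.501 for H3.3 between the starts and 0.723 for body H3K36me3. Without D16S+ as well, chosen afterwards, H3K4me3 between the starts was -1.55. With both groups CpG-rich, a choice made after seeing the data, own-side H3K4me3 was 0.531, body H3.3 -0.312 and H3.3 between the starts -0.413, while body H3K36me3 was 4.75 and H3K4me3 between the starts 4.24. With peak midpoints in the region, own-side H3K4me3 was -3.59, H3.3 agreement -1.11 and H3K36me3 agreement 4.88 points. With 50% of the region covered, body H3K36me3 was 8.12, H3K36me3 agreement -2.17 and H3.3 agreement 2.49. Without the D6T- and D12S+ H3K36me3 libraries, body H3K36me3 was 24.7 and agreement -3.29, where 5 libraries cannot give an exact p under 0.0625. Without the last 1 kb of bodies, also chosen afterwards, H3K36me3 agreement was 1.41. Causes beyond the construction of these alternatives were not tested.

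Counts of changed pair genes depended on the call. With every list cut to the length of the shortest by score, H3.3 gains were 271 and losses 249 and H3K36me3 gains 109. With a stricter fold over input, H3.3 gains were 112 and losses 602, H3K36me3 gains 114, and H3K4me3 gains 2 and losses 665. With a 2-fold change in density, H3.3 losses were 307, H3K36me3 gains 22 and losses 1012 and H3K4me3 losses 1032. Few tags lay in peaks in the cKit libraries, the H3K4me3 library of D16S+ and the H3K36me3 libraries from D12S+ on, so a missing peak says least there. Sequencing depth differed widely among these libraries. cKit+ had the most tags of all libraries, 91.8 M. The D16S+ libraries of H3K4me3 and H3K36me3 had the fewest of their marks, 15.8 M and 13.2 M. The part of depth was not tested.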
